A study of Mus musculus with 285 samples.

Results

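The respiratory chain subunits encoded in the nucleus were described over skeletal muscle of 285 mice. Members were all genes whose symbol starts with Nduf, Sdha, Sdhb, Sdhc, Sdhd, Uqcr, Cox4, Cox5, Cox6, Cox7, Cox8, Atp5, Cyc1 or Cycs and that had values on at least 80% of the arrays. Of 39 such symbols on the array, 35 passed, out of 11622 named genes in all. They comprised 13 subunits of complex I, 3 assembly factors of complex I (Ndufaf1, Ndufaf2 and Ndufaf3), 11 subunits of complex IV and 6 subunits of complex V. The remaining members were Cox7a2l, a factor that joins complexes III and IV into supercomplexes, and Ndufa4l2, a paralog of the chain component Ndufa4. No gene named in the array's annotation carried a symbol starting with Sdh, Uqcr, Cyc1 or Cycs, so complexes II and III and cytochrome c were not analysed here. None of the 13 subunits encoded in mitochondrial DNA had a named probe either. Cox5a, Cox6a2, Atp5b and Atp5k fell short of 80%.

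The mice were F2 animals, female and male, bred by intercrossing F1 mice whose parents were C57BL/6J on one side and C3H/HeJ on the other, in both directions. They had chow with 4% fat up to 8 weeks and then 12 weeks of a Western diet of 42% fat and 0.15% cholesterol, and were killed at 20 weeks, fasted for 12 hours. RNA of each mouse, in Cy3, was compared on a 2-colour array with a pool in Cy5. The pool is described as 1 common pool of equal parts of all samples. All mice shared strains, diet, age and fast and formed 1 group; sex, genotype, cross direction and the muscle taken are not given per mouse, and the mouse number (51 to 362) was the only label that set them apart.

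The respiratory chain sits in the inner mitochondrial membrane. Complex I takes electrons from NADH, complex IV passes them to oxygen, and complex V, the ATP synthase, uses the proton gradient that they build to make ATP. Muscle is one of the tissues richest in these enzymes, and some subunits of complex IV exist in a form made mainly in heart and skeletal muscle (Cox6a2, Cox7a1, Cox8b) and a form made in most other tissues (Cox6a1, Cox7a2, Cox8a).

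Each value below is a log2 ratio of mouse over pool, so 0 means the level of the pool and 1 a level 2-fold higher. The labels state neither the log base nor the sign of the deposited ratio. Read in base 2, every value would shrink by the same factor, with the median SD of the members at 0.0777 in place of 0.258, and no correlation or test would move. The sign was taken as mouse over pool because a pool of all mice should give a mean linear ratio near 1. That mean was 0.796 for Eif2s3y and 0.942 for Kdm5d with this sign, and 23.2 and 3.43 with the sign turned. Pairs of arrays correlated down to -0.745, and 2.48% of the 40470 pairs lay below -0.3. The SD of an array over all features ran from 0.17 to 0.60. The files hold ratios only, so the presence of muscle markers as levels could not be checked, and fewer cells of a type and less RNA per cell cannot be told apart.

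The arrays fell into 4 sets that share a pattern of missing values over 50 probes, and no label explains them. Set A held 63 mice (numbers 51 to 197), set B 77 (54 to 212), set C 65 (213 to 362) and set D 80 (217 to 359). No mouse number lay in the range of both pairs, A with B and C with D. The Y-linked gene Eif2s3y was at most -1.01 in set A and at most -3.53 in set C. It lay between 0.38 and 1.84 in set B and between -0.49 and 0.21 in set D, with medians of 0.91 and -0.087. The ranges of sets B and D thus did not overlap. Whether the pool was the same for the lower and the upper numbers was not tested. Sets A and C lay below sets B and D in Eif2s3y, and sex is not given per mouse. Within either range of numbers, array set and sex therefore cannot be told apart here. Values within these sets are given beside many of the results below.

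Promoter windows are shown for 5 members on which the results turn: Cox6a1 and Cox8a, which moved together and apart from the rest, Cox7a2 and Ndufs4, with steep slopes along Esrra, and Atp5e, the only member of the 30 searched that held the ERR motif. Each window runs from 250 bases before to 50 after the RefSeq start of transcription, 5′ to 3′ on the gene's strand, on build GRCm38.p6; the build behind the array is not given in the sources used here. Capitals mark matches to 4 motifs known from promoters of respiratory genes, searched on both strands: GCGCATGC for NRF1, AAGGTCA for ERR, the family of Esrra, CCGGAAGT for ETS factors such as GABP, and AAGATGGC for YY1.
Cox6a1, chr5:115348909-115349208, minus strand: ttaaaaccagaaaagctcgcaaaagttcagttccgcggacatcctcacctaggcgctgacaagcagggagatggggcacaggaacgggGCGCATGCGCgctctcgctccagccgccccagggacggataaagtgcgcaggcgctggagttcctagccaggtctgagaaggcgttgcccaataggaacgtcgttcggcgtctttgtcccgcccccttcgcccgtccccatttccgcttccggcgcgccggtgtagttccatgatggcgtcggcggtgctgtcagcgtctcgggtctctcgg
Cox8a, chr19:7217567-7217866, minus strand: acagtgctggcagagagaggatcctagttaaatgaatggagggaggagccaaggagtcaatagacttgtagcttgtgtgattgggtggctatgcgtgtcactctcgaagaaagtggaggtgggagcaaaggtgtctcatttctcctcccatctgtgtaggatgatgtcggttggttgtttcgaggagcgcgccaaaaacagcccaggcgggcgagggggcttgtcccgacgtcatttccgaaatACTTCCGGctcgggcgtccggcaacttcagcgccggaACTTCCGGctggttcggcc
Cox7a2, chr9:79759804-79760103, minus strand: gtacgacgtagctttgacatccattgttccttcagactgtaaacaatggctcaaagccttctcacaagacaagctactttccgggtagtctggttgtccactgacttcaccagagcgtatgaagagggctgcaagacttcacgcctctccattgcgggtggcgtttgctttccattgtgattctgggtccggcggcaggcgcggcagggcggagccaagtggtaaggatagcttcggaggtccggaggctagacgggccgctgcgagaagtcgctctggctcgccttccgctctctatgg
Ndufs4, chr13:114388045-114388344, minus strand: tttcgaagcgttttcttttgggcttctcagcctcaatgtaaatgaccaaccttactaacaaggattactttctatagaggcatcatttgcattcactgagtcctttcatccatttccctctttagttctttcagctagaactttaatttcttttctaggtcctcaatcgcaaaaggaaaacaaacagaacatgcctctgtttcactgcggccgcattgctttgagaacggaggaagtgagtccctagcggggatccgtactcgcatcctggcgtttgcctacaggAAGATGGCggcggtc
Atp5e, chr2:174464052-174464351, minus strand: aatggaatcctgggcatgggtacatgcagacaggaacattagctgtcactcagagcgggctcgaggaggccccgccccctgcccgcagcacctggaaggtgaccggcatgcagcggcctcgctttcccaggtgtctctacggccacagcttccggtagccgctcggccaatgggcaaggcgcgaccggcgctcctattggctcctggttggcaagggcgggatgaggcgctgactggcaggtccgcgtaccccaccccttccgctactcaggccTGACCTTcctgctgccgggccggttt
The capitals in Cox6a1 are the NRF1 motif, whose matches on both strands overlap. Cox8a holds the ETS motif at 2 places on the opposite strand, Ndufs4 the YY1 motif and Atp5e the ERR motif on the opposite strand, while the Cox7a2 window holds none of the 4.

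RefSeq windows were found for 30 of the 35 members, 32 windows in all, with a median of 56.8% G and C against 52.7% over all windows. The YY1 motif occurred in 4 members (Atp5j, Atp5j2, Ndufs4 and Ndufs6), 13.3% of the 30 members, against 3.19% of all 27025 genes with a window. NRF1 matches were in 2 members (Cox6a1 and Ndufa11), 6.67%, against 3.05% of genes, and ETS matches in 2 (Atp5h and Cox8a), against 4.31%. The ERR motif was in 1 member, Atp5e (3.33%), against 5.38%. A missing match says only that these letters are not in the window.

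Some deposited values recurred. On most arrays, several probes carried a value identical in every deposited digit, and a value shared by at least 3 probes of an array is called repeated here. Repeated values made up 0.152% of all values but 4.12% of the members' values. Probes with repeated values on at least 10% of arrays were 85 of all, or 0.362%, while 8 of the 41 member probes were among them. They belonged to 8 members, all small subunits of complexes IV and V. Atp5e, the epsilon subunit of the central stalk of ATP synthase, had repeated values on 94 arrays, Atp5j on 71, Atp5j2 on 70, Cox5b on 50, Cox4i1 and Cox7c on 44 each, Cox8b on 40 and Cox7b on 38. The probes kept for 23 members held no repeated value on any array, and Ndufa13, 1 of the 23, had them on a probe left out by the 80% rule. Repeats were more frequent in mice 51 to 212 (Atp5e on 49.3% of arrays) than in mice 213 to 362 (17.2%).

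In mouse 134, 21 probes held the value 1.25, and Atp5e, Atp5j, Atp5j2 and Cox7b were among them. Atp5e and Atp5j were identical on 23 arrays and Atp5e and Pdk4 on 25. The files hold no flags and no intensities, so the origin of these values was not tested. The value most often repeated on an array, available for 266 mice with values at the ends of the scale left out, ran from -1.46 to 1.25 with a median of -0.25. It correlated over mice with the 8 members at a median r of 0.774 (0.705 to 0.853), with the other 27 members at a median of 0.152 (-0.356 to 0.646), and with all named genes at a median of -0.0144. Because these points share array, pool and normalization, the correlations are descriptions with no p, as are all others between genes below. Results are therefore also given with this value as a covariate, and for the 27 other members.

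**Figure D1:**
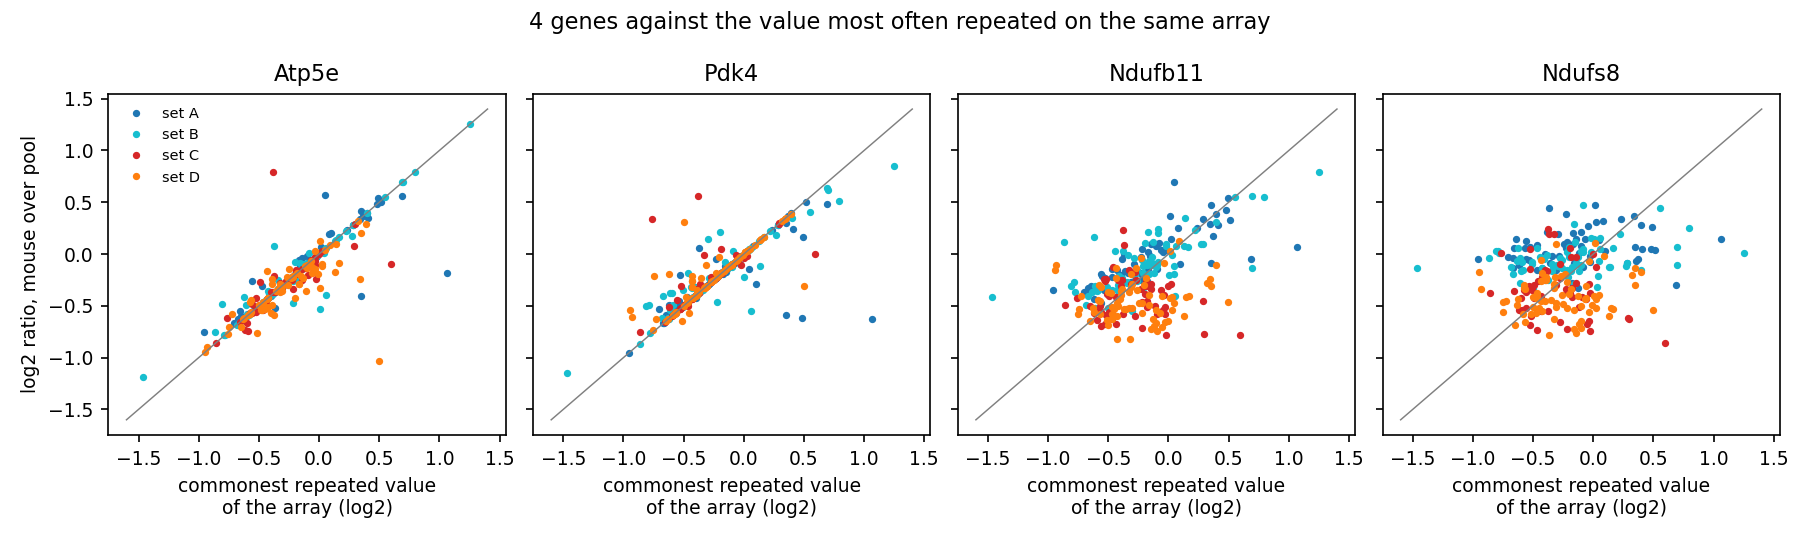
Each point is 1 mouse (266 mice, coloured by array set), with the value most often repeated on its array on the x axis and the log2 ratio of Atp5e, Pdk4, Ndufb11 or Ndufs8 on the y axis; the line marks equality. Atp5e and Pdk4 lie along the line (r = 0.853 and 0.794), while Ndufb11 (0.479) and Ndufs8 (0.177) scatter away from it.

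Over the mice, the members varied somewhat more than a typical gene. Their SD had a median of 0.258, from 0.087 to 0.45, against a median of 0.210 over all named genes, and 23 of 35 exceeded that median. Of the members, 13 differed from the pool by 1.5-fold or more in 10% or more of mice, where 15.8% of all named genes did. The spread was widest among complex IV subunits (median SD 0.322), followed by complex V (0.289), complex I (0.228) and the 3 assembly factors (0.191).

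**Figure D2:**
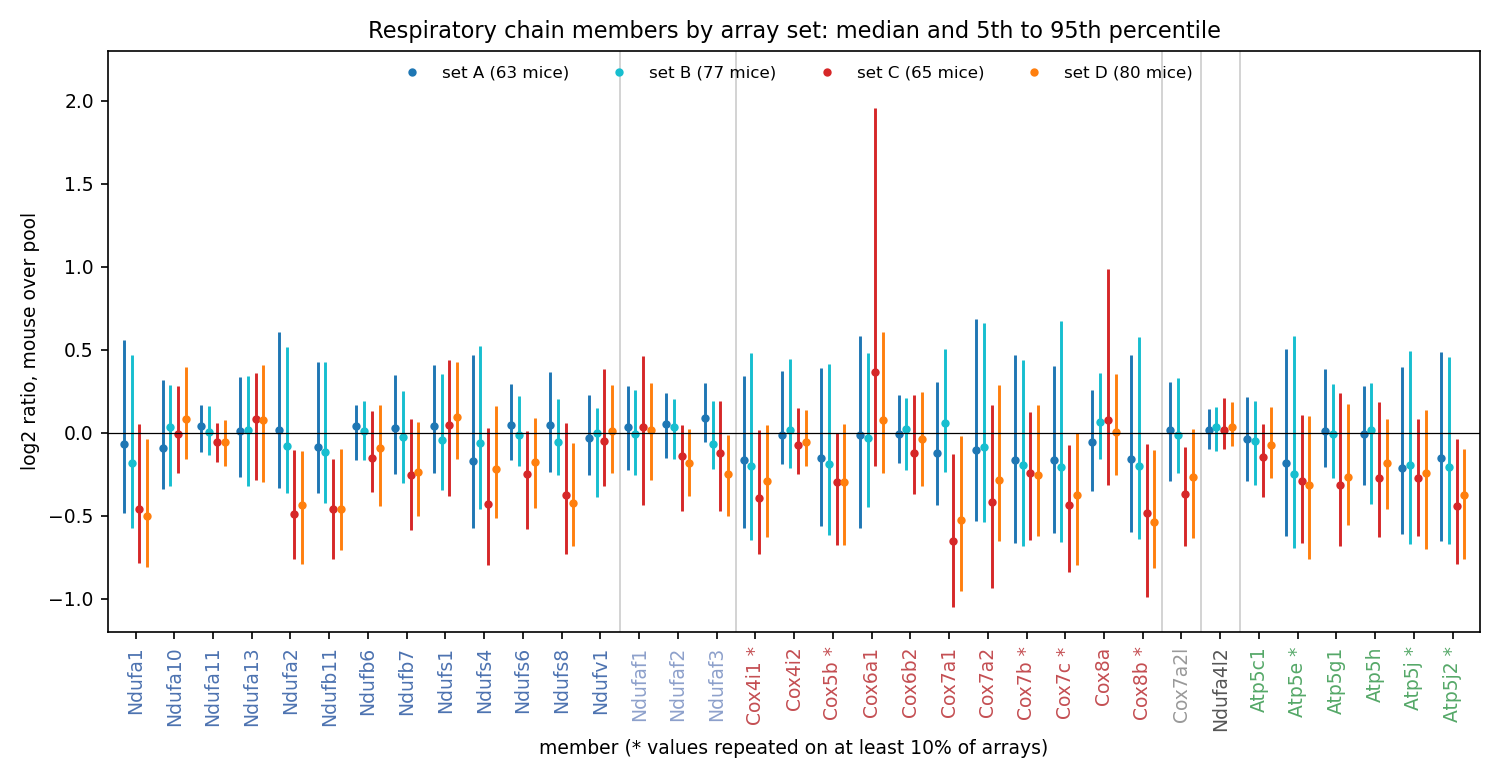
Points are medians and bars run from the 5th to the 95th percentile of the log2 ratio of each of the 35 members in the 4 array sets; the asterisk marks the 8 members with repeated values. Most members lie lower in sets C and D (red and orange) than in A and B, and Cox6a1 reaches furthest up in set C, where its median was 0.37.

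Among complex I subunits, the accessory subunits Ndufa1, Ndufa2, Ndufb11 and Ndufs4 varied most. Ndufa1 ran from -1.10 in mouse 265 through a median of -0.30 to 0.90 in mouse 134 (SD 0.34). Ndufa2 ran from -0.97 through -0.24 to 0.76 (SD 0.34). Ndufb11, a subunit of the membrane arm, ran from -0.98 in mouse 335 through -0.30 to 0.79 in mouse 134 (SD 0.30). The 3 therefore spanned about the same width, with medians below the pool, and mouse 134 stood at the upper end of Ndufa1 and Ndufb11.

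Ndufs8, an iron-sulfur subunit of the core that hands electrons towards ubiquinone, ran from -0.98 through -0.15 to 0.48 (SD 0.28). Ndufs4, an accessory subunit needed for the stable assembly of the NADH-binding module, ran from -0.88 through -0.23 to 1.01 in mouse 134 (SD 0.30). Ndufs1 and Ndufv1, core subunits of that module, had medians of 0.041 and -0.021. Ndufa11 was the least variable subunit of complex I, with an SD of 0.10. Only Ndufa4l2 varied less among all members, with values from -0.24 to 0.26 (SD 0.087).

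Agreement between probes differed. The 2 probes of Ndufb11 correlated at r = 0.948 and those of Atp5h at 0.941, whereas those of Ndufb6 did so at -0.0494, and the 4 probes of Atp5c1 ranged from -0.0154 to 0.943. For Ndufa13, another probe with values on 143 arrays only was left out by the 80% rule, and 85 of its values were repeated. Means over probes of Ndufb6 and Atp5c1, and the single probe left for Ndufa13, are correspondingly uncertain.

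In complex IV, Cox6a1 had the largest SD of all members (0.45). It ran from -0.83 in mouse 203 through a median of 0.062 to 2.62 in mouse 330, 6.15-fold the pool, and 31 mice lay at least 1.5-fold above the pool against 4 below. Cox7a1 ran from -1.36 in mouse 335 through -0.25 to 0.64, with 74 mice at least 1.5-fold below the pool and 4 above (SD 0.39). Cox7a2 ran from -1.23 in mouse 335 through -0.23 to 1.29 in mouse 134 (SD 0.39). Cox6a1, a form made in most tissues, thus had a long upper tail. The muscle form Cox7a1 differed between number ranges, with medians of -0.013 in mice 51 to 212 and -0.59 in mice 213 to 362. Within set C, Cox7a1 ran from -1.36 through -0.65 to 0.055. Cox7a2, the counterpart of Cox7a1 made in most tissues, had 32 mice at least 1.5-fold below the pool and 13 above.

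Cox8b, another muscle form, ran from -1.26 in mouse 335 through -0.37 to 1.22 in mouse 134 (SD 0.36), with 71 mice at least 1.5-fold below the pool. Its counterpart Cox8a ran from -0.55 through 0.02 to 1.55 in mouse 330, with 7 mice at least 1.5-fold above the pool and none below (SD 0.26). Cox7c, a small membrane subunit, ran from -1.41 through -0.31 to 1.21 (SD 0.34). Cox7b, Cox5b and Cox4i1, the last the form of subunit 4 in most tissues, had SDs of 0.32, 0.29 and 0.29.

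Cox4i2, the form of subunit 4 known from lung and from hypoxia, was the only member whose values split by the normal-mixture rule. One component held 270 mice with a mean of -0.036 and the other 15 mice with a mean of 0.39. Such a split was called for 7.15% of all named genes, so 1 of 35 members was no more than the background.

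Of the ATP synthase, Atp5e ran from -1.19 in mouse 92 through -0.27 to 1.25 in mouse 134 (SD 0.33). Atp5j2, a subunit of the membrane part, ran from -1.21 through -0.32 to 1.25 in the same mice (SD 0.33). Atp5j, a subunit of the peripheral stalk, ran from -1.19 through -0.23 to 1.25, again in mice 92 and 134 (SD 0.31). The value that the 3 share in mouse 134 is the repeated one. Atp5g1, which encodes the c subunit of the proton-driven ring and had no repeated value, ran from -1.03 in mouse 335 through -0.13 to 0.69 in mouse 126 (SD 0.27). Atp5h, of the peripheral stalk, had an SD of 0.23 and Atp5c1, the gamma subunit of the central stalk, of 0.16.

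The members left out by the 80% rule moved in the same range where measured. Cox5a, measured on the 145 arrays of mice 213 to 362, ran from -0.92 through -0.27 to 0.43. Cox6a2, the muscle form of subunit 6a, had values on the 140 arrays of mice 51 to 212, from -1.46 through -0.21 to 1.25, and 108 of them were repeated. Cox6a1 and Cox6a2 were therefore not compared. In all, 6 of the 47 probes of the chosen symbols (12.8%) lay below 80%, against 0.212% of all probes.

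The subunits of the 3 complexes tended to move together from mouse to mouse. Over the 595 pairs of members the median r was 0.347, and 32.8% of pairs exceeded 0.5, against a median of -0.00522 and 2.68% for pairs of named genes. Within complexes the median r was 0.357 for complex I, 0.410 for complex IV and 0.417 for complex V. Between complexes it was 0.322 for I with IV, 0.359 for I with V and 0.487 for IV with V, so over all mice these medians overlapped. With the first component removed they were 0.189, 0.254 and 0.192 within complexes against 0.0412, 0.111 and 0.191 between them. Within set C complex I stood at 0.611, against 0.410 with complex IV and 0.402 with complex V.

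The 8 members with repeated values formed the tightest block. Their 28 pairs had a median r of 0.868, which was 0.710 with the commonest repeated value regressed out. Atp5e with Atp5j gave the highest r of all, 0.957, and 0.934 over the 172 arrays on which neither was repeated. The 351 pairs of the 27 other members had a median r of 0.328, and 0.320 with that value regressed out. Within sets A to D the latter pairs had medians of 0.303, 0.235, 0.473 and 0.304, and with each array centred on its median 0.265. Within complex IV, the 15 pairs of members without frequent repeats had a median of only 0.189, against 0.410 over all pairs of that complex.

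**Figure D3:**
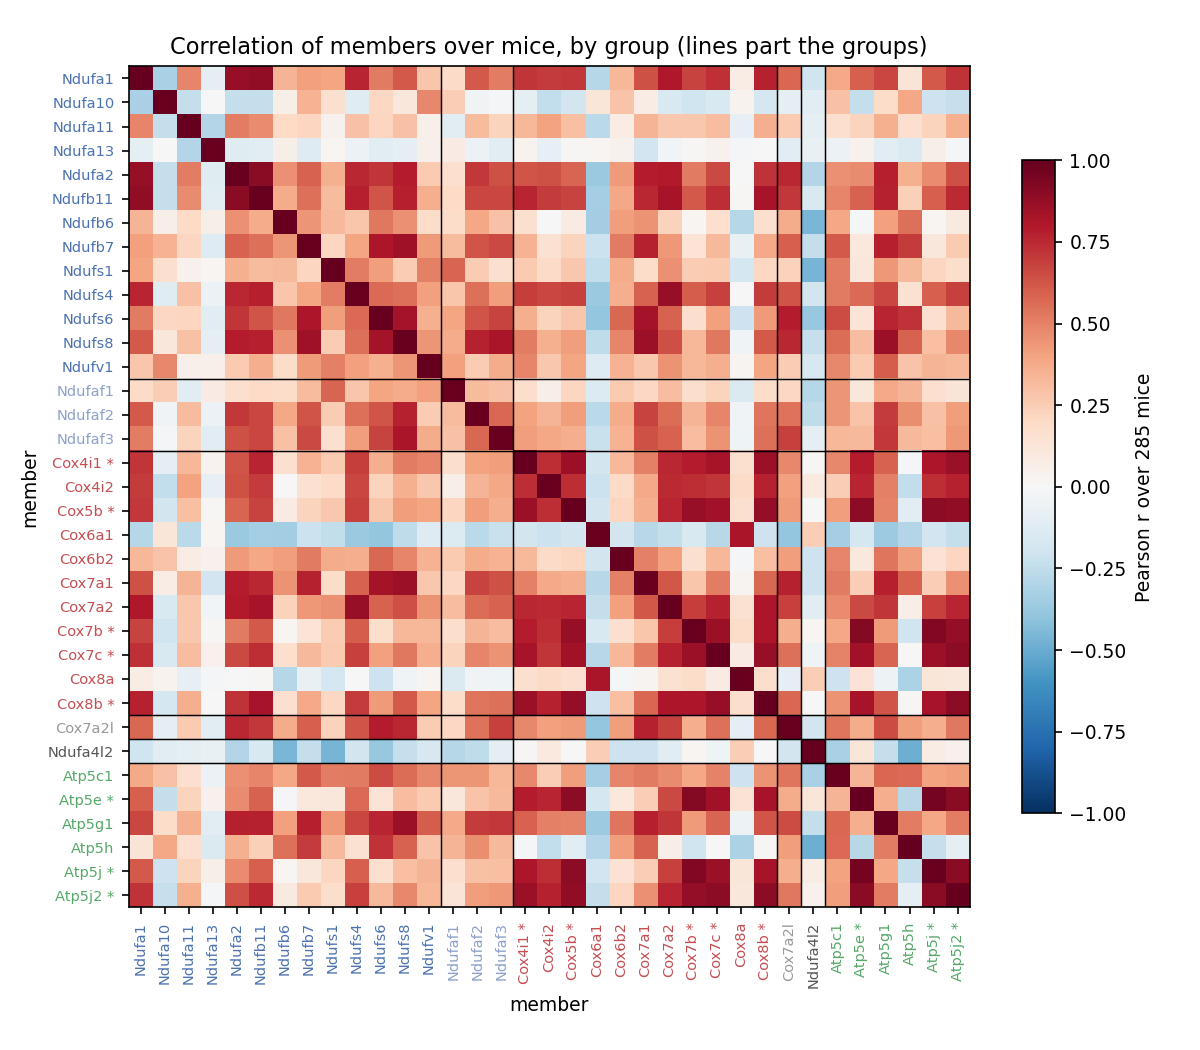
Pearson r over 285 mice for every pair of the 35 members, ordered by group, with lines between groups and an asterisk on the 8 members with repeated values. Most squares are red; Cox6a1, Ndufa4l2, Ndufa13, Ndufa10 and, with complexes I and V, Cox8a form pale or blue rows, while Cox6a1 with Cox8a is a dark red square (0.813).

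Outside that block, Ndufa2 with Ndufb11 had the highest r (0.905), with Ndufa1 and Ndufb11 at 0.883 and Cox7a2 with Ndufs4 at 0.873. A further group held Ndufs8, Ndufs6, Ndufb7, Cox7a1 and Atp5g1: Ndufs8 correlated at 0.857 with Cox7a1, 0.853 with Atp5g1, 0.849 with Ndufb7 and 0.836 with Ndufs6. At the other end, Atp5h with Ndufa4l2 had the lowest r (-0.488), followed by Ndufs1 with Ndufa4l2 (-0.462).

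Each member was also set against the mean of all others (each as a z value). The highest r were those of Ndufb11 (0.878), Cox7a2 (0.872), Cox8b (0.854), Atp5g1 (0.847), Ndufa2 (0.836), Cox7c (0.813), Ndufs8 (0.811), Cox4i1 (0.807), Ndufa1 (0.806), Ndufs4 (0.788), Atp5j2 (0.777) and Cox5b (0.754). In all, 24 of 35 exceeded 0.5: 8 of 13 complex I subunits, 8 of 11 complex IV subunits, 5 of 6 complex V subunits, 2 of 3 assembly factors and Cox7a2l. The lowest were Cox6a1 (-0.316), Ndufa4l2 (-0.225), Ndufa13 (-0.0759), Ndufa10 (-0.0153), Cox8a (0.0456), Atp5h (0.295), Ndufa11 (0.332) and Ndufaf1 (0.346). The 2 complex IV subunits among them, Cox6a1 and Cox8a, are both forms made in most other tissues. Cox7a2, another such form, was among the highest (0.872).

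As means over their subunits, complexes I and V correlated at r = 0.823 and complexes IV and V at 0.832, while I and IV did so at 0.688. Without repeated values these became 0.819, 0.718 and 0.688. The complex IV mean includes Cox6a1 and Cox8a. The extreme mice were partly shared between the complexes. Mouse 335 (set C) was lowest for complex I (-0.63) and complex V (-0.75) and stood at -0.59 for complex IV, and its Esrra of -1.52 was the lowest of all mice. Mouse 134 (set B) was highest for complex IV (0.69) and complex V (0.63), and mouse 73 (set A) for complex I (0.26). In mouse 134, Atp5e, Atp5j and Atp5j2 of complex V and Cox7b of complex IV held the repeated value 1.25. Its means for these complexes therefore rest in part on values whose origin was not tested. The median of the whole array correlated with the mean of the members at 0.722, and at 0.569 with array set and run of 20 numbers removed. Whether that array-wide part contributes to the correlations was not tested beyond the centring above.

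Along the mouse number, most members fell. In 27 of 35 the mean was lower in the 145 mice numbered 213 to 362 than in the 140 numbered 51 to 212, with a median difference over the members of -0.17, against -0.0091 for named genes. In a limma fit of a slope per 100 numbers, Benjamini-Hochberg adjusted over 21512 features, 25 members fell, where 38.7% of all features fell, and 2 rose, where 25.4% of all features rose.

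Cox7a1 fell most. Its values ran from -0.53 through a median of -0.013 to 0.64 in mice 51 to 212 and from -1.36 through -0.59 to 0.47 in mice 213 to 362, so the ranges overlapped although the medians lay far apart. The slope was -0.32 ± 0.018 per 100 numbers (SE, limma adjusted p = 6.27e-46). Ndufa2 (-0.23), Ndufs8 (-0.22), Ndufb11 (-0.21) and Ndufa1 (-0.19) followed. Of complex V, Atp5g1 went from a median of 0.0014 to -0.28 between the lower and the upper numbers. The 2 that rose were Cox6a1 (0.16 ± 0.028, adjusted p = 1.66e-07 in limma) and Ndufa10 (0.048 ± 0.013). Among the 27 members without frequent repeats, 19 fell and the same 2 rose.

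The fall lay between the lower and the upper numbers and within the upper ones. With array set as a factor, 13 members fell and none rose, where 2976 and 2342 of 21512 features did. Within set A 1 member was called (a rise) and within set B 2 (1 rise and 1 fall), whereas 18 fell within set C, and 15 fell and 1 rose within set D. Shares of all features are not given for these fits within sets. Whether the members fell there more often than other features is therefore not shown. The median slope of the members was 0.032, 0.017, -0.16 and -0.10 within sets A to D. For Cox7a1 the slope was -0.058 (limma adjusted p = 0.598) in set A and -0.021 (0.860) in set B, against -0.32 (0.000931) in set C and -0.31 (0.000143) in set D. Cox7a1 thus fell within both sets of mice 213 to 362 and passed the test in neither set of mice 51 to 212, though the slopes of the sets were not tested against each other. With the first principal component of all features as a covariate, 13 rose and 13 fell, where 5866 and 5889 of 21512 features did. Markers of other cells ran along the number too: 7 of 10 slow fibre genes, 7 of 8 tendon genes and 6 of 8 brown adipocyte genes rose and none fell, and all 5 measured erythroid genes fell. Their part in the members' fall was not tested, and the change of array set at number 212 and any other difference between lower and upper numbers cannot be told apart.

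**Figure D4:**
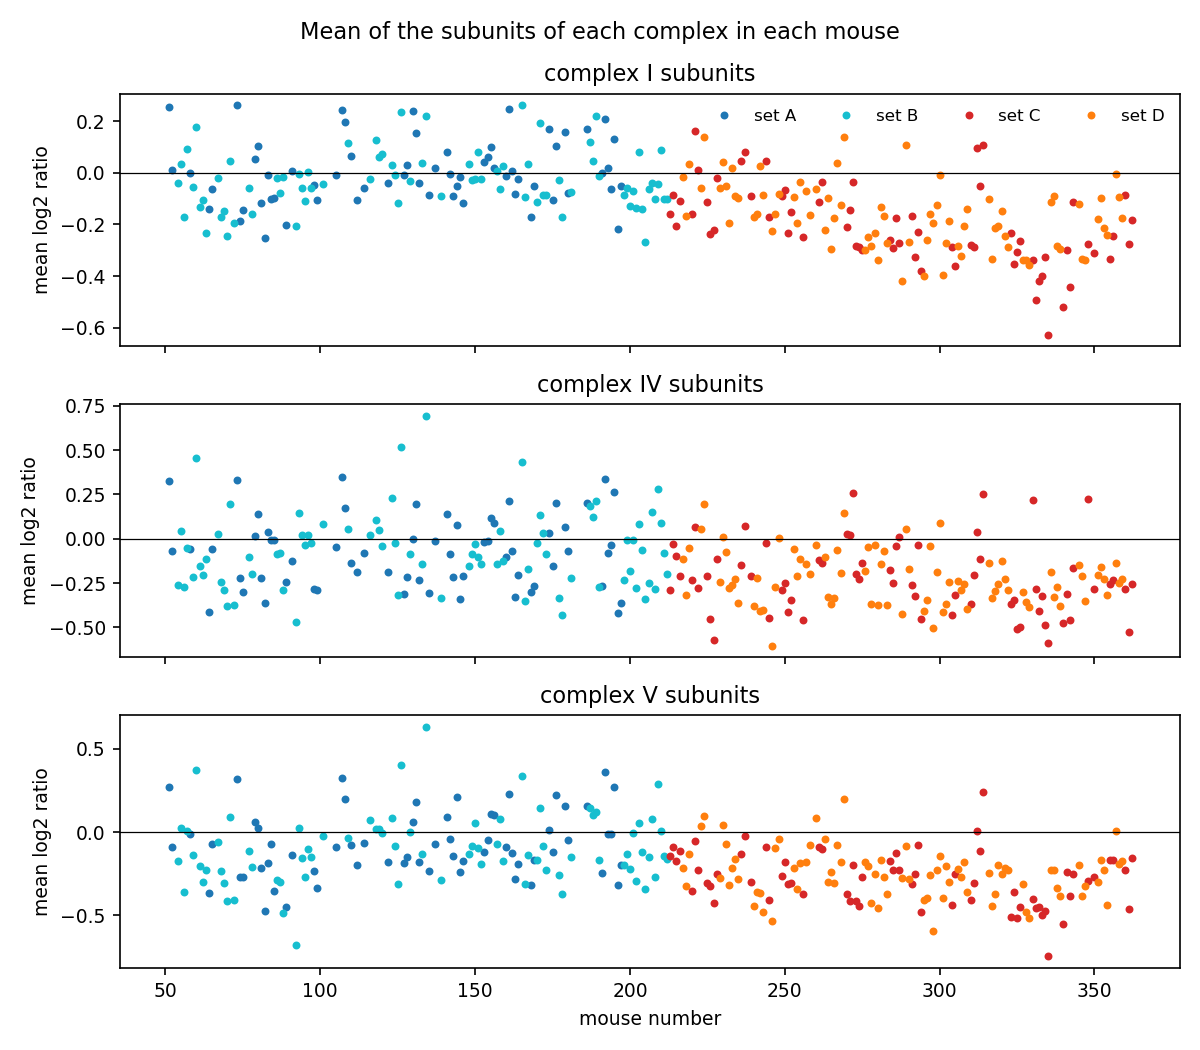
Each point is 1 of 285 mice, with mouse number on the x axis and the mean log2 ratio over the subunits of complex I, IV or V on the y axis, coloured by array set. Means scatter around a level just under 0 up to number 212 and are lower above it, with a low stretch near 330 to 342 that holds the lowest mice for complexes I and V.

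Esrra, the nuclear receptor ERR alpha that binds promoters of many respiratory genes, was the regulator with which the members moved most. Esrra itself ran from -1.52 in mouse 335 through -0.073 to 0.60 in mouse 189. In limma fits per SD of Esrra, with the run of 20 mouse numbers as a factor, 29 of 35 members rose, where 34.7% of all features rose, and 0 fell, where 25.9% of all features fell. Of the 27 members without frequent repeats 21 rose. The 6 not called were Atp5h, Cox6a1, Ndufa11, Ndufa13, Ndufa4l2 and Ndufb6.

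Cox7a2 had the steepest slope, 0.24 ± 0.022 (SE, limma adjusted p = 2.75e-20), followed by Cox8b (0.17 ± 0.020), Cox7b (0.16), Ndufs4 (0.16 ± 0.017) and Cox7c (0.16). Atp5g1 gave the smallest adjusted p among these, 0.15 ± 0.011 (limma adjusted p = 1.62e-29). With the commonest repeated value as a covariate in 266 mice, 30 rose; the slope of Cox7a2 was then 0.17, that of Atp5g1 0.14 and that of Ndufs8, which went from 0.10 to 0.095, hardly smaller. Slopes of the 8 members with repeats had a median of 0.154 and those of the others 0.066. Within sets A, B, C and D, 27, 21, 28 and 26 members rose, with 1 fall in set B. For these fits and the fit with the repeated value, shares of all features are not given. How far these counts exceed those of other features is therefore not shown. The limma fits within a set, here and below, had no run factor. With the first principal component as a covariate, 16 rose and 1 fell, where 3557 and 3634 of 21511 features did.

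**Figure D5:**
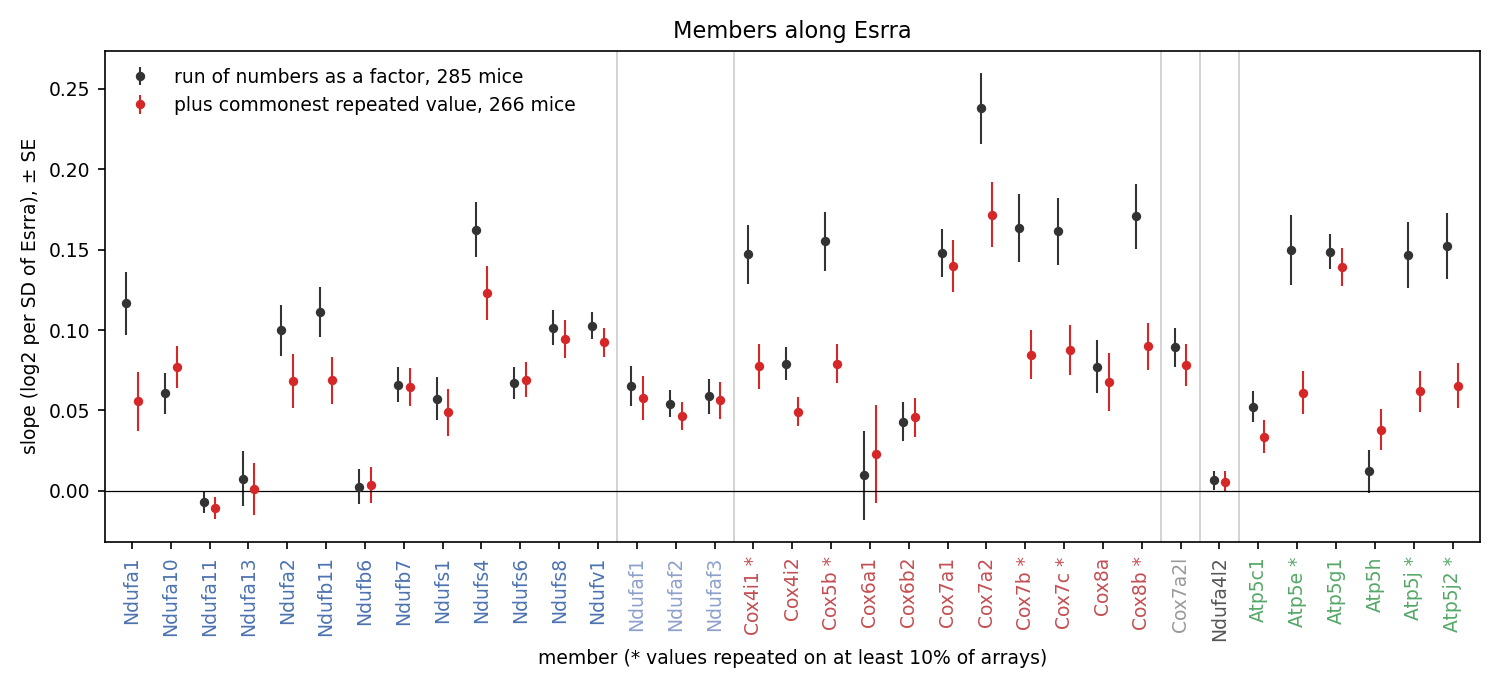
Slope of each of the 35 members in log2 units per SD of Esrra, with SE bars, from the fit over 285 mice (black) and with the commonest repeated value added in 266 mice (red); the asterisk marks members with repeated values. Slopes of the 8 marked members shrink most under the covariate and stay above 0, and Atp5g1, Ndufs8 and Cox7a1 hardly move.

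Other genes of mitochondrial metabolism were counted along Esrra from lists chosen by role. Of the citric acid cycle, 5 of 8 measured genes rose and none fell. Of fatty acid oxidation, 7 of 10 rose and 1 fell, and of assembly factors outside the member rule, 7 of 12 rose and 2 fell. Regulators of mitochondrial genes, Esrra left out, went both ways, with 4 of 16 up and 7 down. Among cell type markers, 7 of 10 slow fibre genes fell along Esrra and 1 rose, while 3 of 5 fast fibre genes rose and 1 fell. Their part in the slopes of the members was not tested. Mylpf, 1 of the 5 fast fibre genes, had repeated values on 153 arrays (53.7%). It correlated at r = 0.899 with the commonest repeated value. The part of repeated values in the fast fibre counts was not tested.

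Ppargc1a, the coactivator PGC-1 alpha that drives mitochondrial biogenesis, gave far fewer calls. It ran from -1.06 through 0.19 to 2.27. With run as a factor 7 members rose, where 7.47% of all features rose, and 0 fell, where 8.08% fell. These were Cox6a1 (0.076 ± 0.028), Cox7b (0.069), Cox8a (0.049), Atp5g1 (0.046), Ndufs8 (0.039), Ndufaf3 and Ndufv1, with limma adjusted p from 0.0152 (Atp5g1) to 0.0468 (Cox6a1). The direction depended on the run factor: without it 6 rose and 18 fell, where 3732 and 4913 of 21511 features did. Median Ppargc1a was -0.16 in set A and -0.34 in set B but 0.82 in set C and 0.30 in set D, opposite to most members. With array set as a factor 4 rose, where 1707 of 21511 features did. The sets gave 2, 1, 0 and 0 calls from A to D, and mice outside numbers 51 to 90 and 271 to 310 gave 1. Shares of all features are not given for these last fits.

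Citrate synthase, Cs, a matrix enzyme often used as a measure of mitochondrial content, did not run with the chain. Along Cs, 3 members rose (Ndufa10 0.049 ± 0.011, Atp5h 0.032 and Cox6b2 0.026), where 24.7% of all features rose. The number that fell was 17, where 27.5% of all features fell; Cox8b (-0.10 ± 0.018, limma adjusted p = 2.69e-07), Cox7a2 (-0.10), Ndufa1 (-0.10 ± 0.016), Cox7b (-0.093) and Atp5e (-0.091) had the steepest slopes. With the commonest repeated value as a covariate, 3 rose and 10 fell. All 8 members with repeats fell, against 9 of the 27 others. Within sets, 16 members fell in set A and 15 in set B, and limma called no member in set C or set D; the slopes of the sets were not tested against each other. Shares of all features are given neither for these sets nor for the fit with the covariate. Whether the difference between sets concerns the members or all features is therefore not shown. Cs itself varied little, from -0.63 through 0.0066 to 0.58 (SD 0.16).

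Pdk4, the kinase that shuts off pyruvate dehydrogenase in fasting, shares the feature of repeated values with the members, having them on 136 arrays (47.7%). Along Pdk4, 26 members rose, where 35.7% of all features rose, and 1 fell (Atp5h, -0.063 ± 0.011), where 34.4% fell. The steepest slopes belonged to Atp5e (0.27 ± 0.011), Cox7b (0.26), Atp5j (0.25), Cox7c (0.24) and Atp5j2 (0.24), all with repeated values, with limma adjusted p down to 2.69e-71 for Atp5e. The median slope was 0.242 in the 8 members with repeats and 0.041 in the other 27. Pdk4 lay a median of 1.1e-04 from the commonest repeated value of its array, where the 8 members lay 0.083 from it and the other 27 members 0.301.

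With that value as a covariate, 21 members rose along Pdk4 and none fell. Cox7a2, with 1 repeated value in all, had a slope of 0.22 ± 0.017, and 0.15 ± 0.029 with the covariate (limma adjusted p = 2.1e-05). Ndufs8 kept its slope, 0.052 without and 0.056 with it, while Ndufa1 went from 0.14 to 0.057 and was no longer called (adjusted p = 0.0720). In sets C and D, 12 and 13 rose, against 21 and 23 in sets A and B. Neither for the sets nor for the fit with the covariate are shares of all features given. These counts alone thus do not set the members apart from other features. How far the slopes along Pdk4 come from shared repeated values and how far from the genes' RNA was not tested.

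Ucp1, the uncoupling protein of brown fat, singled out Cox6a1 and Cox8a. Ucp1 was above the pool in 56 mice, of which 27 were in set C, 13 in set D, 12 in set A and 4 in set B. Its highest value was 6.16 in mouse 330 against a median of -2.0. In limma, with run as a factor, the only members called along Ucp1 were Cox6a1 (0.28 ± 0.023 per SD of Ucp1, adjusted p = 1.99e-25) and Cox8a (0.14 ± 0.016, adjusted p = 5.2e-15), both of which rose. Over all features 3.66% rose and 3.44% fell.

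The 5 mice with the highest Ucp1 were 330, 348, 272, 270 and 287, all of set C. Their Cox6a1 was 2.62, 2.21, 2.05, 1.53 and 1.75, against a median of 0.062 over all mice. Cox8a was 1.55, 1.24, 1.25, 0.84 and 0.72 in the same mice, against a median of 0.02. The muscle form Cox7a1 was -0.78, -0.65, -0.044, -0.59 and -0.31 (median -0.25 over all mice and -0.65 in set C). Cox8b was -0.059, -0.21, -0.12, -0.33 and -0.26, all of them above its median of -0.37 over all mice and of -0.48 in set C. Cox7a2, the counterpart of Cox7a1 made in most tissues, lay between -0.75 and 0.12 in these mice (median -0.23 over all mice and -0.42 in set C). None of these 3 passed the test along Ucp1.

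Over all mice Cox6a1 correlated with Ucp1 at r = 0.690 and Cox8a at 0.517, and without mouse 330 at 0.671 and 0.483. Within sets, r was highest in set C (0.787 and 0.700) and lowest in set B (0.220 and 0.0134), the set with the fewest mice above the pool in Ucp1. The slope of Cox6a1 passed the test in sets A, C and D and that of Cox8a in sets C and D. Without repeated values the slopes were the same 0.28 and 0.14, and neither gene had one. Of the 7 other brown adipocyte markers measured, 5 rose along Ucp1 and none fell, and 4 of 7 white adipocyte markers rose. In the 5 mice Cidea, a lipid droplet protein of brown fat, was between 3.98 and 4.38, Elovl3 between 2.11 and 4.56, Dio2 between 1.27 and 3.26, Otop1 between 1.59 and 2.25 and Ppargc1b between 0.37 and 0.97. Prdm16, a regulator of brown fat, went both ways, with 1.11, 0.012, -2.74, -2.95 and 0.079 in the order of the mice above, and Zic1 lay between -0.67 and 1.09. The part of fat cells in the muscle samples was not tested.

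Without the run factor 3 members rose along Ucp1 and 19 fell, where 3207 and 5384 of 21511 features did. With the commonest repeated value as a covariate 2 rose and 4 fell, where 938 and 869 features did, so the absence of falls is tied to the setting. Cox6a1 and Cox8a were called with a positive slope under both.

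Along Tnnt1, the slow fibre troponin, which ran from -4.34 to 1.79, 3 members were called. Ndufaf3 rose (0.051 ± 0.017), where 9.98% of all features rose, and Ndufs4 (-0.12 ± 0.029) and Cox7a1 (-0.12 ± 0.025) fell, where 9.89% fell. With array set as a factor no member was called by limma. The other 32 members passed the test in neither direction.

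Along Fmod, fibromodulin, a marker of tendon, 20 members fell, where 29.1% of all features fell, and 0 rose, where 16.5% of all features rose. The steepest were Cox7a2 (-0.18 ± 0.037, limma adjusted p = 2.99e-05), Ndufs4 (-0.15 ± 0.027), Cox7b (-0.13), Cox8b (-0.13) and Atp5e (-0.13). All 8 members with repeats were among the 20, with 12 of the 27 others. With the commonest repeated value as a covariate Cox7a2 (-0.12) and Ndufs4 (-0.11) still fell. With the first principal component as a covariate no member was called. Fmod was higher in sets C and D (medians 0.42 and 0.64) than in A and B (-0.68 and -0.80), and the part of tendon in the fall of the members was not tested.

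For 3 subunits both tissue forms were measured, so that their difference within an array could be followed. Cox7a1 minus Cox7a2 ran from -1.30 in mouse 134 through a median of -0.14 to 0.84 in mouse 157, and both forms correlated with each other at r = 0.621. Cox8b minus Cox8a ran from -1.61 in mouse 330 through -0.38 to 1.16 in mouse 134 (r = 0.174). Cox4i1 minus Cox4i2 ran from -1.08 in mouse 92 through -0.24 to 0.33 in mouse 209 (r = 0.740). The forms of subunit 8 were thus the least tied to each other, and those of subunit 4 the most.

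The 3 differences were tested against 5 genes with permutation tests (100000 shuffles within runs of 20 numbers, two-sided, adjusted over 15 tests), and 7 passed by Pearson r. The smallest p that the shuffles can give is 1e-05. With Pdk4, Cox7a1 minus Cox7a2 gave r = -0.537 (rho -0.474), Cox8b minus Cox8a 0.537 (rho 0.496) and Cox4i1 minus Cox4i2 0.523 (rho 0.465), each with a permutation p of 1e-05 and an adjusted p of 3.75e-05. With the 2 mice most extreme in Pdk4 left out, r was -0.508, 0.50 and 0.490. Within sets A to D, Cox7a1 minus Cox7a2 gave -0.523, -0.587, -0.450 and -0.439 and passed in each. Cox8b minus Cox8a gave 0.595 and 0.797 in sets A and B, but 0.297 and 0.260 in sets C and D, where it did not pass by r (adjusted permutation p = 0.0817 and 0.0756). Cox4i1 minus Cox4i2 gave 0.624 and 0.837 in sets A and B but only 0.113 and 0.0468 in sets C and D (adjusted permutation p = 0.616 and 0.787). The signs follow which form moves more with Pdk4: Cox7a2 (0.614) more than Cox7a1 (0.253), Cox8b (0.755) more than Cox8a (0.251).

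With Cs the differences gave r = 0.277 (rho 0.231, permutation p = 1e-05), -0.162 (rho -0.158, permutation p = 0.00815) and -0.182 (rho -0.167, permutation p = 0.00171), with adjusted p of 3.75e-05, 0.0175 and 0.00427. Without the 2 extreme mice these were 0.249, -0.150 and -0.202. Within sets, Cox7a1 minus Cox7a2 and Cox8b minus Cox8a passed with Cs in sets A and B and Cox4i1 minus Cox4i2 in set B, and none passed in set C or D. With Ucp1, Cox8b minus Cox8a gave r = -0.251 (rho -0.150, permutation p = 5e-05, adjusted p = 0.000150), and -0.205 without the 2 extreme mice; within sets A to D r was -0.190, -0.143, -0.550 and -0.262, which passed in set C alone. None of the 3 differences passed with Tnnt1 over all mice, but Cox7a1 minus Cox7a2 did within set D (r = -0.402, adjusted permutation p = 0.00165), by rho within set C (-0.326, adjusted permutation p = 0.0355) and without run centring (r = -0.177, adjusted permutation p = 0.00504), where Cox8b minus Cox8a also passed by rho (0.174, adjusted permutation p = 0.00609). With Ppargc1a none passed by r in the test within runs, while Cox7a1 minus Cox7a2 passed by rho (-0.166, adjusted permutation p = 0.0136).

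Repeated values touched these tests, since Cox8b, Cox4i1 and Pdk4 carry them. With the commonest repeated value regressed out in 266 mice, 4 of 15 passed. With Pdk4, r became -0.174, 0.107 (adjusted permutation p = 0.260) and 0.198; with Cs it became 0.164, 0.00222 and -0.0465. Cox8b minus Cox8a with Ucp1 became -0.420 (adjusted permutation p = 0.000150). Over the 129 mice in which none of these genes was repeated, 5 passed, and those with Pdk4 stayed at -0.569, 0.578 and 0.517, but Cox8b minus Cox8a with Ucp1 was -0.0405 (adjusted permutation p = 0.714).

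The named genes outside the members that ran most closely with their mean were Hint2, a mitochondrial nucleotide hydrolase (r = 0.888), Nme2, a nucleoside diphosphate kinase (0.884), Trpv4, a calcium channel (0.862), Pnkd (0.858), Mcee, methylmalonyl-CoA epimerase (0.857), Higd1a, a small protein of the inner mitochondrial membrane (0.843), and Mrpl12, a protein of the mitochondrial ribosome (0.841). Mrpl34 (0.806) and Mrps21 (0.804), of the same ribosome, were also among the top 20, with Kcnk15, Ap3s2, SEC23B, Npb, Tff3, Morn4, Rp2, Il1f10, Tfap2d, Nlrc5 and Psmb5 (0.784). Of the 20, only Psmb5 (47 arrays) and Nme2 (7) had repeated values, and with the mean of the 27 other members Hint2 correlated at 0.863. With array set and run removed, the r of the 20 ran from 0.696 (Nlrc5) to 0.870 (Hint2). Several varied less than the median named gene (SD 0.210), such as Trpv4 (0.185), Kcnk15 (0.166) and Il1f10 (0.156). The array median correlated with the member mean at 0.722, and its part in these r was not tested. The lowest r belonged to Sltm, a nuclear RNA-binding protein (-0.817), Sec16a (-0.782), Arhgap23 (-0.773), Ppp4r1 (-0.772) and Fto, an RNA demethylase (-0.772), followed by Ankrd16, Fnbp4, Rhbdf1, Mbtps1 and WDR68 (-0.765). These 10 had no repeated values.

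As mean z scores over lists, assembly factors outside the rule correlated with the member mean at r = 0.518, citric acid cycle genes at 0.505, erythroid markers at 0.453, fatty acid oxidation genes at 0.406 and fast fibre markers at 0.387. Tendon markers (-0.40) and endothelial markers (-0.30) ran the other way, and glycolysis genes stood at -0.00622. With array set and run removed, these became 0.382, 0.608, 0.216, 0.501, 0.502, -0.203, -0.235 and -0.167 in the same order, and white adipocyte markers went from 0.203 to 0.447 and brown adipocyte markers from -0.282 to -0.0345. Over all mice, single genes of most lists went both ways. Positive r were held by 8 of 12 assembly factors, 3 of 5 fast fibre, 3 of 7 white adipocyte and 1 of 8 brown adipocyte genes. Endothelial markers ran from -0.614 to 0.627, with 2 of 8 positive. All 5 erythroid markers were positive and 0 of 8 tendon markers. The fast fibre gene Mylpf (0.593) had repeated values on 153 arrays. Within the citric acid cycle, Idh3g (0.686) and Idh3b (0.657), subunits of isocitrate dehydrogenase, ran with the members, whereas Cs (-0.161) and Ogdh (-0.324) did not. Of fatty acid oxidation, Acads (0.719), the dehydrogenase of short chains, was highest and Slc25a20 (-0.405), the carnitine carrier, lowest. Among regulators, Esrra was highest (0.684) and Pprc1, a relative of PGC-1 alpha, lowest (-0.609), with Tfam, which packages mitochondrial DNA, at 0.418.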

How the data were processed

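Per the labels' protocols, RNA was extracted on RNeasy columns with DNAse treatment and labelled with an automated aminoallyl MessageAmp II kit. The values deposited by the authors were taken to be log10 ratios and converted to log2; scanner, background correction and normalization are not given in the sources used here. Values were bounded at 2 and -2 in log10, a 100-fold difference from the pool, and array medians lay between -0.022 and 0.017 in log10. Of 23560 probes, 23510 had values on at least 80% of arrays and were kept; gaps, 0.0972% of values, were filled with the mean of the probe. Of all probes, 13653 carried 1 symbol, 48 several and 9859 none. For 12650 of the probes with 1 symbol, the symbol was taken from RefSeq through the Entrez identifier. Averaging the probes of a gene left 11622 named genes, beside 9890 probes without a name. The number of arrays limits the precision, and signal over background is unknown. The labels name the mice as separate animals, so the spread is between animals; the titles of mice 189, 203, 223 and 239 also carry an unexplained 2 in brackets, and whether these are repeat arrays is not given in the sources used here.

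Slopes were fitted with limma 3.58.1 (lmFit and eBayes) in R 4.3.3 over all features, with Benjamini-Hochberg adjustment at 0.05. Fits along genes used the SD of that gene as the unit and left the gene itself out. They had the run of 20 mouse numbers as a factor, except within array sets. The fit along mouse number had no such factor. A feature "rose" or "fell" where the adjusted p passed. Clusters were called with mclust 6.1.1 where BIC gained over 10, means lay over 3 SD apart and each component held at least 5% of mice. Correlations and permutation tests used numpy 2.4.6 and scipy 1.17.1 under python 3.11.15, with tables read by pandas 2.3.3 and the R package data.table, version 1.17.8, and plots drawn with matplotlib 3.10.9. The fits, the mixture and the permutation tests were tested on simulated data.

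Named members are the 12 of largest SD, the 12 highest and 8 lowest in r with the rest, both forms of each isoform pair, those with clusters and up to 5 per regressor and direction; outside the members, the 20 highest and 10 lowest in r with the member mean, the regressors and examples of each list. Further members were named after their values were seen, as were the repeated values, the array sets and their alternatives, which were added after seeing the data. Members and lists were chosen with earlier results of these data known. Alternatives changed the run factor, normalization, probe choice, mice, scale and filter.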

Additional observations from a re-analysis of the deposited data

How the results depend on the processing

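No paired analysis was possible because all mice form 1 group. The counts of members called were 27 along mouse number, 7 along Ppargc1a, 29 along Esrra, 20 along Cs, 3 along Tnnt1, 27 along Pdk4, 2 along Ucp1 and 20 along Fmod. Without the run factor these were 24 for Ppargc1a, 8 for Tnnt1, 22 for Ucp1 and 32 for Fmod. With the first principal component as a covariate they were 3 for Ppargc1a, 17 for Esrra, 9 for Cs, 6 for Tnnt1, 14 for Pdk4, 7 for Ucp1 and 0 for Fmod. Ranks gave 5 for Tnnt1 and 1 for Ucp1, and mice outside numbers 51 to 90 and 271 to 310 gave 1 for Ppargc1a and 13 for Fmod. Among alternatives added after seeing the data, array set as a factor gave 13 for mouse number, 4 for Ppargc1a and 0 for Tnnt1, and the commonest repeated value as a covariate gave 4 for Ppargc1a, 13 for Cs and 6 for Ucp1. Within set A there were 1 for mouse number, 2 for Ppargc1a and 1 for Tnnt1; within set B 2, 1 and 1, and 0 for Ucp1; within set C 0 for Ppargc1a, Cs and Tnnt1, 12 for Pdk4 and 2 for Fmod; within set D 16 for mouse number, 0 for Ppargc1a and Cs, 14 for Pdk4 and 8 for Ucp1. The sets hold 63 to 80 mice each, so fewer samples enter those fits, and the limma fits within a set had no run factor. What each of these contributes, and the cause of the other changes, was not tested. Shares of all features called are not given beside the counts of members in this section. Leaving out mouse 134, 335 or 330 moved no count by over 1.5 times. Of 15 isoform tests 7 passed, 2 each within sets C and D, and 4 with the commonest repeated value regressed out. Cox8b minus Cox8a with Cs changed sign, from r = -0.162 to 0.225 within set C, where it did not pass. With that value regressed out its r was 0.00222, so the relation was lost rather than reversed. The median pairwise r of members stayed above 0 in every alternative, from 0.120 with the first component removed, where the main value was 0.347, to 0.421 within set C. Read in base 2, the median SD of members would be 0.0777 in place of 0.258. The files hold no intensities, so limits from signal over background are unknown.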
